A study of Mus musculus with 24 samples.

Results

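Ephx2, Jpt1, Pqlc1, Map3k6, Rnf144b, B4galt4 and Hpcal1 are 7 genes of mouse tibialis anterior (TA) muscle, out of 15108 genes tested and 55487 listed. They were chosen by the measured values themselves, being among the genes whose response to photobiomodulation therapy (PBMT) differed most between fatigued and sedentary muscle in an earlier test by unadjusted p. For these genes the PBMT effect in each state and the difference between the states are therefore given as a description, with no test. The mice were WT C57BL/6J males of 5 to 7 weeks in 4 groups of 6, sedentary or fatigued, each with PBMT or as control. PBMT was 830 nm light on the shaved lower limbs for 20 min under anesthesia, and controls had the same shaving and 20 min of anesthesia with no light. The left TA of sedentary mice was collected 24 h after the procedure, while fatigued mice began a treadmill run to exhaustion at that time, of a length that varied between mice, and gave the muscle after it. The paper reports longer runs in mice given light than in controls. In the fatigued PBMT effect, and so in the difference between the states, light and run length cannot be told apart. The part of run length was not tested. Poly(A) RNA was sequenced in separate projects for the sedentary and the fatigued mice, so that state and sequencing project cannot be told apart.

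The 7 genes have different roles. Ephx2 encodes soluble epoxide hydrolase, which turns epoxides of fatty acids into diols, and B4galt4 encodes a Golgi enzyme that adds galactose to sugar chains, keratan sulfate among them. Map3k6 encodes a kinase at the head of the stress-activated cascade that leads to JNK and p38, and Hpcal1 encodes a calcium-binding protein of the neuronal calcium sensor family. Rnf144b encodes a ubiquitin ligase of the RBR class and is known as a target of the transcription factor p53. Jpt1 encodes a small protein named for its relation to the microtubule protein Jupiter of flies, and Pqlc1 a membrane protein with PQ-loop repeats, a motif shared with lysosomal transporters.

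The libraries held 43271093 to 52775844 counts in sedentary mice and 53122528 to 68726155 in fatigued mice. Every member passed the filter on low counts, and the lowest count of any of them in a mouse was 139, for Hpcal1. Expression is given as CPM, the usual rate of a gene's counts over the normalized library total. Markers of fast TA muscle were abundant in every group, led by Myh4 with a mean of 37924 CPM. In whole muscle, fewer cells of a type and less RNA per cell cannot be told apart.

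In GENCODE M21 (GRCm38) Ephx2 lies on chromosome 14 from 66084374 to 66124500, Jpt1 on chromosome 11 from 115497353 to 115514387 and Pqlc1 on chromosome 18 from 80253292 to 80292725. Map3k6 lies on chromosome 4 from 133240818 to 133252929, Rnf144b on chromosome 13 from 47122656 to 47247991, B4galt4 on chromosome 16 from 38742264 to 38769049 and Hpcal1 on chromosome 12 from 17690856 to 17791933. Each lies on a chromosome of its own. Annotated genes on the opposite strand overlap Rnf144b (Gm48581 and A930002C04Rik) and B4galt4 (Gm15575), and held 0, 6 and 1 counts over all 24 mice.

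Some libraries stood apart from the rest. Sedentary control replicate 4 had 3.24% of its counts in mitochondrially encoded genes, against 15.5% to 17.0% in the other sedentary controls and 13.8% to 17.1% with PBMT. Sedentary control replicate 1 had a sum of macrophage and myeloid markers of 150 CPM, far above the other sedentary controls, and fatigued PBMT replicate 5 had the highest sum among fatigued mice, 149 CPM. Fatigued PBMT replicate 5 also had the highest sums of interstitial mesenchymal and tendon markers of all mice. For the members and their most alike genes, values that move by over 1.5 times without these mice are given beside the genes.

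Per kilobase of the longest transcript, the order of levels in sedentary controls was Jpt1, Ephx2, Rnf144b, Hpcal1, Pqlc1, B4galt4 and Map3k6. Jpt1 stood at 17.9 ± 2.45 CPM per kilobase (SD, n = 6) and Ephx2 at 12.4 ± 0.507 (SD, n = 6). Rnf144b followed at 5.04 ± 0.417 CPM per kilobase (SD, n = 6) and Map3k6 was last at 2.25 ± 0.453 (SD, n = 6). Hpcal1, Pqlc1 and B4galt4 had levels between 3.21 and 3.74 CPM per kilobase, and neighbours among these differed by less than the larger of their SDs.

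**Figure D1:**
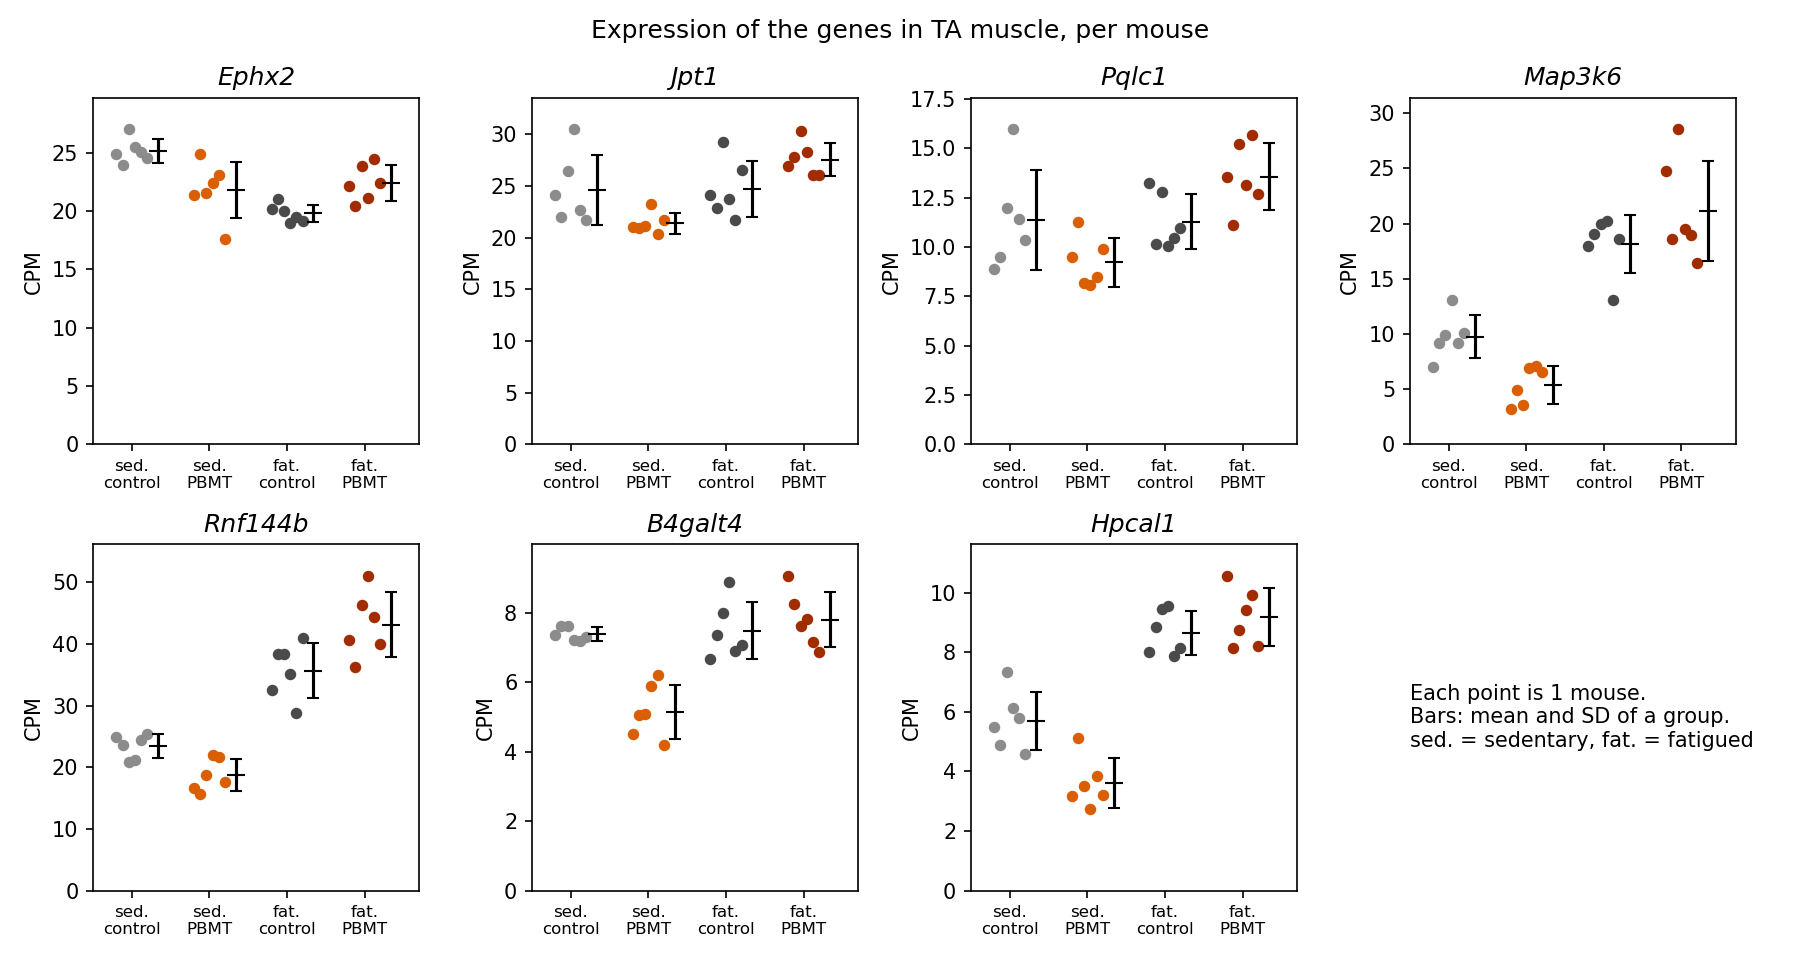
CPM of each gene (vertical axes, from 0) in each mouse of the 4 groups, 6 mice a group, with the mean and SD of a group as a bar. In sedentary muscle the PBMT-treated mice sit lower, without overlap in B4galt4 (4.18 to 6.21 CPM against 7.18 to 7.63 CPM).

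Of the 7 genes, 7 had a fitted PBMT effect below 0 in sedentary muscle and above 0 in fatigued muscle. This pattern held for 26.9% of the 14021 genes tested in both states, and since it follows from the choice of the genes nothing is read from it. By unadjusted p of the difference, 5 of them were among the first 10 genes, and Pqlc1 and Jpt1 came at ranks 35 and 41. Among all genes 2.95% had an unadjusted p under 0.05 with a positive difference (a signed PBMT effect that is higher in fatigued muscle) and 1.45% with a negative one. A single gene, Nfil3, or 0.00662% of those tested, passed the adjusted threshold of 0.05, and it is not a member. Without sedentary PBMT replicate 2 there were 3 genes that passed, Nfil3, Rps4l and the member Hpcal1, and as Hpcal1 was chosen by this contrast nothing is read from its call. The fatigued effect lay 0.660 standard errors above 0 for B4galt4, 0.978 for Hpcal1 and 1.603 for Map3k6, and 2.17 to 3.10 in the other 4 genes. These values are part of the difference that chose the genes, so they are a description whatever their size. An opposite direction in the 2 states was not tested for any of the 7 and is not taken as shown for any of them.

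In sedentary controls, B4galt4 ranged from 7.18 to 7.63 CPM with a median of 7.33, and in sedentary PBMT mice from 4.18 to 6.21 with a median of 5.08. All 6 mice given light were lower than every control, and B4galt4 was the only member whose sedentary groups did not overlap, as in 0.265% of genes tested with PBMT lower. In fatigued controls B4galt4 ranged from 6.67 to 8.88 CPM with a median of 7.23, and with PBMT from 6.88 to 9.07 with a median of 7.74. The fatigued groups overlapped, with 1 PBMT-treated mouse above the highest control, and no member had fatigued groups apart, as 0.00662% of genes did with PBMT higher. The log2 fold change with PBMT was -0.51 (standard error 0.103) in sedentary muscle and 0.06 (standard error 0.0927) in fatigued muscle. The fatigued value is smaller than its standard error, so that an opposite direction is not shown for B4galt4. It was 0.014 without fatigued PBMT replicate 1 and 0.12 without fatigued control replicate 4.

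Ephx2, the epoxide hydrolase, ranged from 23.9 to 27.0 CPM in sedentary controls with a median of 25.0, and from 17.6 to 24.9 with PBMT with a median of 22.0. In fatigued controls it ranged from 19.0 to 20.995 CPM with a median of 19.7, and with PBMT from 20.4 to 24.4 with a median of 22.3. In sedentary muscle 5 of the 6 mice given light were under the lowest control, and in fatigued muscle 5 of 6 lay above the highest control, so each pair of groups overlapped by a narrow margin. The log2 fold changes were -0.20 (standard error 0.0767) in sedentary and 0.18 (standard error 0.0574) in fatigued muscle. They were similar in size, and Ephx2 had the smallest spread between mice of the 7, with a within-group SD of 0.105 in log2 CPM against a median of 0.232 over all genes tested.

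Map3k6 ranged from 7.04 to 13.1 CPM in sedentary controls with a median of 9.54, and from 3.21 to 7.12 with PBMT with a median of 5.71. In fatigued controls Map3k6 ranged from 13.1 to 20.2 CPM with a median of 18.8, and with PBMT from 16.4 to 28.5 with a median of 19.2. Fatigued control replicate 5, at 13.1 CPM, lay far below the other fatigued controls. In sedentary muscle 5 of the 6 mice given light were under the lowest control, and in fatigued muscle 2 of 6 lay above the highest. The log2 fold changes of Map3k6 were -0.85 (standard error 0.191) and 0.22 (standard error 0.136), so most of the difference of 1.08 between the states lay in the sedentary mice. The fatigued medians were close and the fatigued groups overlapped, and without fatigued PBMT replicate 3 the fatigued value was 0.11, so that an opposite direction is not shown for Map3k6.

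Hpcal1 had the same form. It ranged from 4.59 to 7.33 CPM in sedentary controls with a median of 5.65, and from 2.74 to 5.13 with PBMT with a median of 3.37. In fatigued controls it ranged from 7.89 to 9.57 CPM with a median of 8.50, and with PBMT from 8.15 to 10.6 with a median of 9.09. The sedentary groups overlapped by 1 PBMT-treated mouse, and the fatigued groups overlapped widely. The log2 fold change of Hpcal1 was -0.66 (standard error 0.150) in sedentary muscle and 0.08 (standard error 0.0867) in fatigued muscle, the latter again smaller than its standard error, so that an opposite direction is not shown for Hpcal1 either. Without fatigued PBMT replicate 1 the fatigued value of Hpcal1 was 0.04.

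Rnf144b ranged from 20.8 to 25.5 CPM in sedentary controls with a median of 23.98, and from 15.7 to 22.0 with PBMT with a median of 18.2. In fatigued controls Rnf144b ranged from 28.7 to 41.0 CPM with a median of 36.8, and with PBMT from 36.3 to 51.1 with a median of 42.5. Mice given light were under the lowest sedentary control in 4 of 6 cases and over the highest fatigued control in 3 of 6, and both pairs of groups overlapped. The log2 fold changes were -0.31 (standard error 0.0947) and 0.27 (standard error 0.0956).

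Jpt1 ranged from 21.8 to 30.5 CPM in sedentary controls with a median of 23.4, and from 20.4 to 23.2 with PBMT with a median of 21.1. In fatigued controls Jpt1 ranged from 21.7 to 29.2 CPM with a median of 23.97, and with PBMT from 26.0 to 30.3 with a median of 27.4. The highest sedentary value, 30.5 CPM, was that of control replicate 4, the library with few mitochondrial counts. The log2 fold change of Jpt1 was -0.19 (standard error 0.0810) in sedentary muscle, -0.13 without that mouse and -0.12 without all 3 libraries that stood apart, and 0.16 (standard error 0.0732) in fatigued muscle.

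Pqlc1 ranged from 8.89 to 16.0 CPM in sedentary controls with a median of 10.9, and from 8.10 to 11.3 with PBMT with a median of 9.00. In fatigued controls Pqlc1 ranged from 10.1 to 13.2 CPM with a median of 10.7, and with PBMT from 11.1 to 15.7 with a median of 13.3. Control replicate 4 was again the highest sedentary mouse, and the groups overlapped in both states. The log2 fold change of Pqlc1 was -0.29 (standard error 0.128) in sedentary muscle and 0.27 (standard error 0.0990) in fatigued muscle. Without control replicate 4 the sedentary value was -0.17, a change of over 1.5 times, and the part of that library in the result was not tested.

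**Figure D2:**
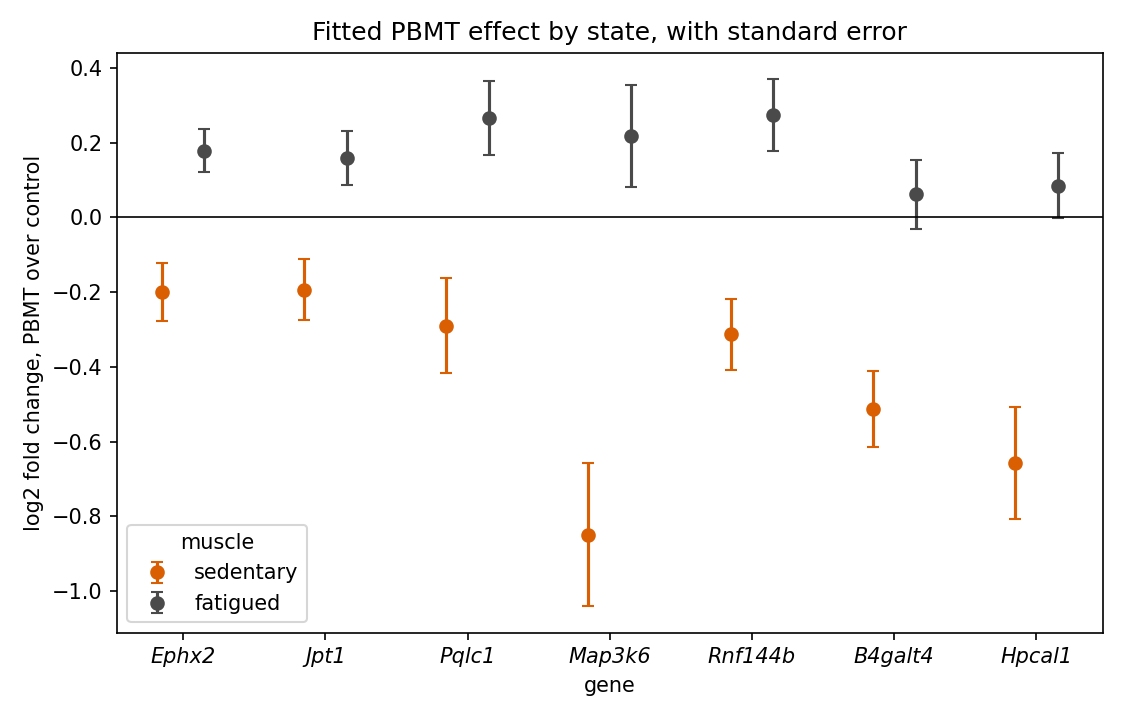
Fitted log2 fold change of PBMT over control (vertical axis) with its standard error for each gene (horizontal axis), in sedentary and in fatigued muscle, 6 mice a group. The sedentary values run from -0.85 for Map3k6 to -0.19 for Jpt1, and the fatigued values from 0.06 for B4galt4 to 0.27 for Rnf144b.

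The mean of the PBMT effects of both states and the mean difference between the states were not the contrast that chose the genes. They are independent of it only where the spread is equal in all groups, and the spread of several members differs between groups. Both are therefore given for the members as a description, with no test. The mean PBMT effect can lie away from 0 when a gene differs in 1 state alone. It was -0.23 (standard error 0.0673) for B4galt4, -0.29 (standard error 0.0882) for Hpcal1 and -0.32 (standard error 0.126) for Map3k6, whose effects lay mainly in sedentary muscle. For Ephx2, Jpt1, Pqlc1 and Rnf144b it lay between -0.02 and -0.01, within its standard error, and its sign turned in some alternatives. Of all genes 0% passed edgeR's adjusted threshold for the mean effect, with 1.87% at an unadjusted p under 0.05 and higher and 1.96% lower, and DESeq2 called 3 genes and limma 4.

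Averaged over control and PBMT mice, 6 of the 7 genes had a higher fitted level in fatigued muscle and 1, Ephx2, a lower one, where 49.3% of all genes tested were above 0. Map3k6 was 2.71-fold higher (log2 1.44, standard error 0.128), Hpcal1 1.97-fold (log2 0.97, standard error 0.0887) and Rnf144b 1.87-fold (log2 0.91, standard error 0.0682). In these 3 genes all 12 fatigued mice lay above all 12 sedentary mice, as in 1.98% of genes tested, for Map3k6 by the margin of 13.11 over 13.09 CPM. That margin lay between fatigued control replicate 5 and sedentary control replicate 4, the library with few mitochondrial counts. The log2 difference was 0.31 for B4galt4, 0.27 for Pqlc1 and 0.19 for Jpt1 (standard errors 0.0673, 0.0855 and 0.0559), and the states overlapped in each. In these 3 genes the controls of both states had like means, 7.39 and 7.49 CPM for B4galt4, 11.4 and 11.3 CPM for Pqlc1 and 24.6 and 24.7 CPM for Jpt1 (sedentary, then fatigued). With PBMT the means were 5.16 and 7.81 CPM for B4galt4, 9.24 and 13.6 CPM for Pqlc1 and 21.4 and 27.6 CPM for Jpt1. For Ephx2 the averaged log2 difference was -0.15 (standard error 0.0469), with means of 25.2 and 19.8 CPM in controls and 21.8 and 22.4 CPM with PBMT. That the PBMT mice of the states differ more toward a higher fatigued level than the controls do follows from the choice of the genes, and nothing is read from it. The run and the sequencing project cannot be told apart in any of these values.

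Between mice of the same group, the 21 pairs of genes were compared by the deviations of their log2 CPM from the group means. No pair passed a permutation test adjusted over the 21 pairs, by Pearson r or by Spearman rho. At an unadjusted p under 0.05 were 3 pairs by Pearson r and 4 by Spearman rho, with 1 pair in both. The pair with the highest Pearson r was Jpt1 and Pqlc1 (Pearson r = 0.520, p = 0.0306, adjusted p = 0.275, Spearman rho = 0.292, p = 0.199, adjusted p = 0.392, 24 mice). Within the projects r was 0.604 for the sedentary and 0.393 for the fatigued mice. Without the 2 mice farthest from the median of Jpt1 it was 0.209. Leaving out such mice narrows the range and can by itself lower r, so nothing is concluded from the drop. Jpt1 and Map3k6 had r = 0.448 (p = 0.0126, adjusted p = 0.265, Spearman rho = 0.329, p = 0.0919, adjusted p = 0.366), with 0.370 and 0.596 within the projects and 0.349 without the 2 farthest mice. Pqlc1 and Hpcal1 had r = 0.468 (p = 0.0392, adjusted p = 0.275, Spearman rho = 0.451, p = 0.0437, adjusted p = 0.242), with 0.554 and 0.247 within the projects and 0.333 without the 2 farthest mice. Without the farthest mice the unadjusted permutation p was 0.0702 and 0.138 for these pairs. The others by Spearman rho were Pqlc1 and B4galt4 (rho = -0.453, p = 0.0332, r = -0.321, p = 0.0921), Ephx2 and Pqlc1 (rho = 0.435, p = 0.0461, r = 0.321, p = 0.117) and Ephx2 and Hpcal1 (rho = 0.445, p = 0.0461, r = 0.506, p = 0.0602), each with an adjusted permutation p of 0.242 for rho and 0.306 for r. Within the sedentary and the fatigued project r was -0.335 and -0.309, 0.171 and 0.657, and 0.606 and 0.200 for these pairs in the same order. Without the 2 farthest mice it was -0.377, 0.442 and 0.362 (unadjusted permutation p = 0.0708, 0.0439 and 0.0968, adjusted p = 0.335 for each). The sign of r was the same in both projects in 12 of the 21 pairs.

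For each gene the 3 genes with the most similar pattern over the 24 mice, measured by Pearson r of deviations from the project mean, were found among all genes tested. These r values include the difference between PBMT and control and describe the pattern only. Nfil3, a transcriptional repressor with a role in the circadian clock, was among the 3 closest genes of B4galt4 (r = 0.866), Map3k6 (r = 0.813) and Rnf144b (r = 0.724). B4galt4 was closest to Noct, a gene known for its daily rhythm (r = 0.887, 0.952 in sedentary and 0.654 in fatigued mice), and also close to Max (r = 0.846). Map3k6 was closest to Fam107a (r = 0.856) and Adgrg1 (r = 0.827), and Rnf144b to Nfil3, Csrnp1 (r = 0.682) and Trib1 (r = 0.660). Ephx2 was closest to BC048679 (r = 0.858), Rps4l (r = 0.783) and Ramp2 (r = 0.757). In fatigued mice the r of Ephx2 with Ramp2 was 0.361, and 0.0233 without fatigued PBMT replicate 5. Hpcal1 was closest to Fam162a (r = 0.828), Oxld1 (r = 0.807) and Ramp2 (r = 0.803), with 0.856 to 0.887 in sedentary and 0.413 to 0.582 in fatigued mice. The r of Hpcal1 with Ramp2 in fatigued mice was 0.429, and 0.279 without fatigued PBMT replicate 5. Jpt1 was closest to Ak1 (r = 0.800), Ptges3l (r = 0.799) and Uqcc3 (r = 0.786), and Pqlc1 to Jam3 (r = 0.790), Rnaseh2a (r = 0.781) and Pmf1 (r = 0.780). Sedentary control replicate 4, the library with few mitochondrial counts, had the highest level of all mice in Ak1, Ptges3l, Uqcc3, Rnaseh2a and Pmf1. Without it r was 0.671, 0.670 and 0.648 for Ak1, Ptges3l and Uqcc3 with Jpt1, and within the sedentary mice it went from 0.850, 0.8288 and 0.864 to 0.570, 0.556 and 0.607. For Ptges3l the sedentary r was 0.540 without all 3 libraries that stood apart. Without replicate 4 r was 0.821, 0.648 and 0.643 for Jam3, Rnaseh2a and Pmf1 with Pqlc1. Rnaseh2a and Pmf1 had r = 0.914 and 0.907 with Pqlc1 in sedentary mice (0.850 and 0.784 without replicate 4) and 0.494 and 0.516 in fatigued mice.

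Among genes outside the 7, the difference between the states was tested. Nfil3 ranged from 28.2 to 36.5 CPM in sedentary controls, 13.1 to 20.9 in sedentary PBMT mice, 52.0 to 68.1 in fatigued controls and 49.7 to 78.2 in fatigued PBMT mice. Nfil3 was lower with PBMT in sedentary muscle, where the groups did not overlap (log2 -0.96, standard error 0.109, adjusted p = 0.000925 in edgeR). In fatigued muscle its groups overlapped and its effect was 0.14 (standard error 0.112), 0.09 to 0.21 with a mouse left out. The signed effects differed by 1.11 (standard error 0.161, adjusted p = 0.00370 in edgeR), most of it from the sedentary mice, and the difference passed in 24 of 24 fits that each left out 1 mouse. The next genes by p were Ifi205 (difference 1.30, standard error 0.280), BC048679 (2.39, standard error 0.541), Ms4a4a (1.79, standard error 0.415) and Rps4l (1.05, standard error 0.249), each with an edgeR adjusted p of 0.430. Fatigued PBMT replicate 5, one of the libraries that stood apart, was the highest fatigued mouse in all 4, at 4.79 CPM for BC048679 against 0.741 to 1.53 in the other 5 of its group and at 6.51 CPM for Ms4a4a against 1.96 to 3.48. Without this mouse the difference was 1.16 for Ifi205, 1.70 for BC048679, 1.46 for Ms4a4a and 0.95 for Rps4l. The fatigued PBMT effect went from 1.42 to 0.73 for BC048679, from 0.29 to -0.04 for Ms4a4a and from 0.35 to 0.21 for Ifi205, so that most of the difference of Ms4a4a lay in the sedentary mice. Rps4l passed without sedentary PBMT replicate 2 (adjusted p = 0.0277, with 0.0277 to 0.999 over the alternatives). Around the members in the order of p stood Pfkfb4 just after Ephx2, with a difference of 0.49, Msh3 (-0.37) and CT010467.1 (1.36) on either side of Pqlc1, and Adamts9 (0.98) and Ifi204 (1.101) on either side of Jpt1. The members themselves had differences from 0.36 for Jpt1 to 1.08 for Map3k6.

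The closest relatives of the 7 genes gave no call. The difference was 0.04 (standard error 0.161) for Ephx1, the microsomal epoxide hydrolase, 0.05 (standard error 0.153) for Map3k5, the partner kinase of Map3k6, and -0.02 (standard error 0.378) for Rnf144a. It was -0.06 for Jpt2, -0.04 for Pqlc2 and 0.46 for Pqlc3, with standard errors of 0.206, 0.154 and 0.469. Without fatigued PBMT replicate 5 the difference was -0.07 for Ephx1, -0.31 for Rnf144a, -0.17 for Jpt2 and 0.11 for Pqlc3, and without sedentary control replicate 4 it was -0.07 for Map3k5. Of the other B4galt genes tested, B4galt1 had a difference of 0.20 (standard error 0.100) and B4galt7 one of -0.36 (standard error 0.144, unadjusted p = 0.0204). B4galt2, B4galt3, B4galt5 and B4galt6 had differences of -0.006, 0.09, 0.06 and -0.08, each smaller in size than its standard error. Hpca and Hpcal4 did not pass the filter on low counts.

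Pathway lists around the genes were counted for the same difference, and no gene of any list passed the adjusted threshold. Over all genes tested the median difference was 0.02, 53.7% were above 0, and 2.95% were higher and 1.45% lower at an unadjusted p under 0.05. Of the 11 tested genes of epoxide hydrolysis and epoxy fatty acid synthesis 8 were above 0 (median 0.06). Of 20 microtubule regulators 8 were above 0 (median -0.04), of 9 PQ-loop and lysosomal export genes 3 (median -0.03), of 25 stress kinase genes 10 (median -0.03) and of 18 RBR ligases and partners 4 (median -0.05). The p53 target genes had 10 of 17 above 0 (median 0.02), the galactosyltransferase and keratan sulfate genes 10 of 17 (median 0.06) and the neuronal calcium sensors 4 of 4 tested (median 0.32). In these 8 lists 5 genes had an unadjusted p under 0.05, namely Fabp3 (0.42, standard error 0.171) and Txn1 (0.27, standard error 0.126) above 0, and Slc38a9 (-0.44, standard error 0.146), B4galt7 (-0.36, standard error 0.144) and Ephx3 (-1.34, standard error 0.623) below 0. Without fatigued PBMT replicate 5, which stood apart, 5 of 11 epoxide genes (median -0.02) and 5 of 17 galactosyltransferase and keratan sulfate genes (median -0.22) were above 0, beside 49.9% of all genes tested, and Fabp3 and Txn1 were 0.31 and 0.20.

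Genes known to respond to glucocorticoids or fasting had 20 of 23 above 0, beside 53.7% of all genes tested, and a median difference of 0.40. This list, like the others, was chosen with earlier results of these data known, so its counts are a description and the list was not tested. At an unadjusted p under 0.05 there were 4 of the 23, all above 0, beside 2.95% of all genes tested. The difference was 0.75 (standard error 0.239) for Zbtb16, a transcription factor, 1.13 (standard error 0.358) for Mt1 and 1.27 (standard error 0.535) for Mt2, which encode metallothioneins, and 1.11 (standard error 0.445) for Slc25a25, a mitochondrial carrier, each with an edgeR adjusted p of 0.946. In sedentary muscle 19 of the 23 were lower with PBMT (median -0.22) and in fatigued muscle 16 of 23 were higher (median 0.07), where 49.6% and 52.0% of all genes tested were above 0, with 0 calls of the list in either by edgeR. At an unadjusted p under 0.05 were 7 of the 23 in sedentary and 1 in fatigued muscle, beside 7.63% and 1.58% of all genes tested. Without sedentary control replicate 4 there were 15 of the 23 lower in sedentary muscle (median -0.14), and without fatigued PBMT replicate 5 there were 20 of 23 higher in fatigued muscle (median 0.12). Between the states 13 of the 23 were higher and 5 lower in fatigued muscle at an adjusted p under 0.05, beside 19.5% and 20.3% of all genes tested.

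Markers of other cells were counted beside these genes. All 8 macrophage and myeloid markers had a difference above 0 (median 0.66), and 0 passed at an unadjusted p under 0.05. Their summed level per mouse was 150, 99.0, 92.9, 76.9, 68.7 and 73.2 CPM in sedentary controls and 43.7, 58.8, 87.5, 66.2, 54.2 and 80.7 CPM in sedentary PBMT mice. It was 64.5, 53.03, 77.4, 55.6, 104 and 86.0 CPM in fatigued controls and 40.6, 90.9, 73.6, 57.8, 149 and 60.6 CPM in fatigued PBMT mice. The groups overlapped in both states. Lyz2 was the most abundant of these markers, at a mean of 34.5 CPM, and none was at 0 in every mouse. S100a8 and S100a9 were near 0 in fatigued muscle, with means of 0.258 and 0.348 CPM in controls and 0.285 and 0.705 CPM with PBMT. In sedentary muscle their means were 11.4 and 17.6 CPM in controls and 8.25 and 13.1 CPM with PBMT. Without fatigued PBMT replicate 5 all 8 were still above 0, with a median of 0.36, and 0.21 without all 3 libraries that stood apart. The part of these cells in the results was not tested. Of the other lists, 7 of 7 slow fiber, 7 of 7 interstitial mesenchymal and 6 of 6 tendon markers were above 0 (medians 0.30, 0.49 and 0.29), and 0 of 7 Schwann cell markers were (median -0.36). Myl3 of slow fiber (0.77) and Ly6a of interstitial cells (0.49) were above 0 at an unadjusted p under 0.05 in edgeR. Pax7 of satellite cells (-0.61) was below 0 at that threshold, and no marker passed the adjusted one. Fast muscle had 4 of 10, satellite cells 3 of 6, endothelium 1 of 6, adipocytes 4 of 6, erythrocytes 4 of 5 and keratinocytes 0 of 1 tested above 0. Several of these counts rest on fatigued PBMT replicate 5, which had 3221 CPM of interstitial and 867 CPM of tendon markers, far above the rest of its group. Without this mouse the fatigued PBMT mean was 1219 CPM for the interstitial and 282 CPM for the tendon markers, under the fatigued control means of 1293 and 320.1 CPM. The lists then had 3 of 7 slow fiber (median -0.03), 7 of 7 interstitial (median 0.14), 1 of 6 tendon (median -0.16), 1 of 6 adipocyte and 1 of 5 erythrocyte markers above 0, and 0 of 7 Schwann cell markers (median -0.49). Without sedentary control replicate 4 it was 1 of 10 for fast muscle and 1 of 5 for erythrocytes.

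Libraries also differed in how log2 CPM ran with transcript length. The slope per doubling of length was -0.0592 ± 0.0535 (SD, n = 6) in sedentary controls and -0.0122 ± 0.0297 (SD, n = 6) with PBMT, and 0.0380 ± 0.0188 and 0.0335 ± 0.0444 (SD, n = 6 each) in fatigued controls and PBMT mice. With the trend removed, the difference of Jpt1, one of the shorter transcripts, was 0.26 in place of 0.36.

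**Figure D3:**
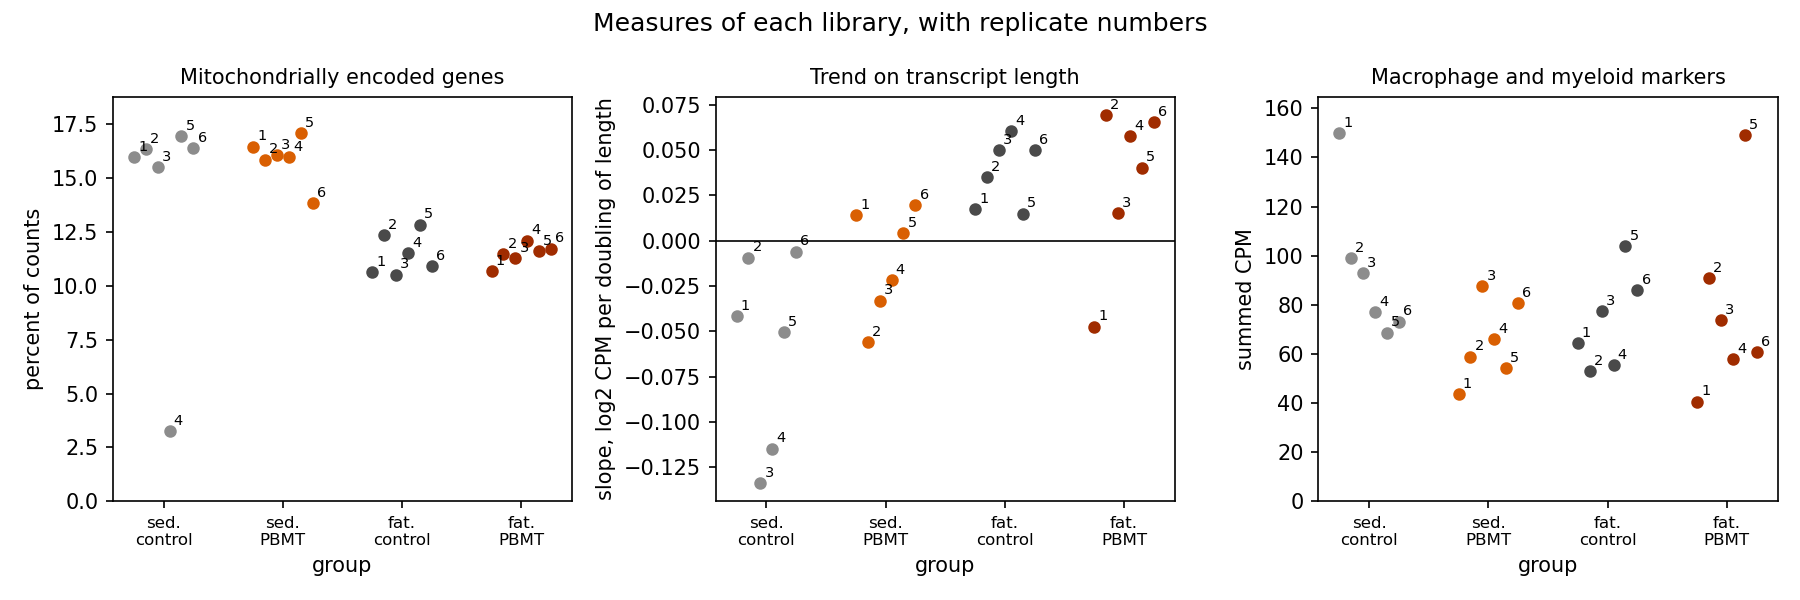
Share of counts in mitochondrially encoded genes (percent), slope of log2 CPM on log2 transcript length, and summed CPM of macrophage and myeloid markers (vertical axes) for each mouse by group, with replicate numbers beside the points. Sedentary control replicate 4 sits at 3.24% mitochondrial counts, and the myeloid sums reach 150 CPM in sedentary control replicate 1 and 149 CPM in fatigued PBMT replicate 5.

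RefSeq promoter windows (GRCm38.p6, 250 bases before to 50 from the gene start on) matched 5 of the 7 genes, in 6 windows, with none for Ephx2 and Pqlc1. The windows of the 3 genes with Nfil3 among their closest genes are printed 5′ to 3′ to show where matches lie, in capitals, and no motif searched was in the windows of all 3 genes. On both strands 10 motifs were searched, and matches are a description of letters only. The glucocorticoid response element GNACANNNTGTNC was found in the window of Map3k6, and in 0.475% of all 32851 windows. The C/EBP site TTGCNNAA (10.8% of windows) and the TATA box TATAAA (13.6%) were found in the downstream window of Rnf144b and in that of Jpt1, and the CCAAT box CCAAT (37.4%) in those of B4galt4 and Jpt1, where it overlaps the C/EBP site. The GC box GGGCGG (35.7%), not capitalised here, was in 4 windows. The D-box TTATGTAA, the E-box CACGTG, the CRE TGACGTCA, the AP-1 site TGANTCA and the FOXO site TGTTTAC were in none of the 6, and in 0.938%, 7.15%, 1.79%, 7.81% and 3.65% of all windows.
Map3k6, chr4:133240568-133240867, plus strand: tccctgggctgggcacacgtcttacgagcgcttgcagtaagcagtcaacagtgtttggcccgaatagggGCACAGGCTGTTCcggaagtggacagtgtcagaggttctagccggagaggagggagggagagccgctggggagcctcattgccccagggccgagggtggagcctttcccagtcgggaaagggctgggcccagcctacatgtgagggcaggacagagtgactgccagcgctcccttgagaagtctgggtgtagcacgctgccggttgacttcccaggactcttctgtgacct
Rnf144b, upstream start, chr13:47122470-47122769, plus strand: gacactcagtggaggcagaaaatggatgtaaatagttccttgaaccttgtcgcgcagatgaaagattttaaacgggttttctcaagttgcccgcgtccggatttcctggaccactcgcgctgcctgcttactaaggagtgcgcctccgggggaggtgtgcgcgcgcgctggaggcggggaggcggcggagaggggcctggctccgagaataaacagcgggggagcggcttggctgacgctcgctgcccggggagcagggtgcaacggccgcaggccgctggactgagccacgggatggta
Rnf144b, downstream start, chr13:47193753-47194052, plus strand: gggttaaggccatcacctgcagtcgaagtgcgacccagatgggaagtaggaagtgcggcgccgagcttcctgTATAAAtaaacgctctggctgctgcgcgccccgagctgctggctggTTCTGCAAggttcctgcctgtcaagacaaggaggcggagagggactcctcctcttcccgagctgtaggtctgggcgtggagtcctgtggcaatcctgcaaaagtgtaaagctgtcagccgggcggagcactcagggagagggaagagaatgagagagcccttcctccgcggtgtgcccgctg
B4galt4, chr16:38742009-38742308, plus strand: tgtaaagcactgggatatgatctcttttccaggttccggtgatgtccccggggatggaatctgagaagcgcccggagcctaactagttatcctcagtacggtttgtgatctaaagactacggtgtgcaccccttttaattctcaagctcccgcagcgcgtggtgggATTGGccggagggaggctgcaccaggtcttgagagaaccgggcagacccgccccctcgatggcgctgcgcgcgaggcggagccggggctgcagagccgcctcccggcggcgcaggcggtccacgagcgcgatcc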

How the data were processed

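RNA of the left TA muscle of 24 mice was analysed. The authors deposited whole-number counts per gene for each mouse, with no normalization. The submitters' processing notes name Trimmomatic, STAR 2.7.1a, Picard 2.20.4, StringTie 2.0.4, featureCounts 1.6.0, HTSeq and GRCm38, without their order. The strand setting of the counting is not given in the sources used here. Of 55487 identifiers, 55227 matched GENCODE M21.

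The 7 genes and all gene lists were chosen with earlier results of these data known. Counts were fitted in R 4.3.3 with edgeR 4.0.16 (TMM, filterByExpr with a minimum count of 10, robust quasi-likelihood test, Benjamini-Hochberg adjusted p under 0.05 across the tested genes). The difference, the mean PBMT effect and the state were contrasts of 1 fit to 24 mice, and each PBMT effect was fitted within its project. Tests of the mean effect and the state were planned for the 7 genes and are not reported, since the spread of several differs between groups. P-values measure the spread between these mice. The log2 CPM used a prior count of 2. Correlations were tested by permuting mice within groups (100000 resamples, two-sided).

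By the rule for named genes these were, beside the 7, the 5 others with the smallest p of the difference, neighbours in that order, the 3 most alike genes of each, close relatives and the 2 list genes with the smallest p. Further markers and list genes were named after their values were seen. Alternatives were no filter, 10 counts in every mouse, size factors and tests of DESeq2 1.42.0, voom of limma 3.58.1 with quality weights, removal of length or GC trends (loess, span 0.3), unadjusted p, a replicate block, all mice in 1 model, a prior count of 0.5 and leaving out each mouse.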

Additional observations from a re-analysis of the deposited data

Results flagged for a closer look

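Of 80 groups of 6 mice, covering the 7 genes, the mitochondrial share, the length slope and the sums of 11 marker lists, 12 had a mouse far from the rest, and chance gives about 1 in 20 groups. Map3k6 was at 13.1 CPM in fatigued control replicate 5. The mitochondrial share of counts was 3.24% in sedentary control replicate 4. The summed level of macrophage and myeloid markers was 150 CPM in sedentary control replicate 1. Fatigued PBMT replicate 5 had 3221 CPM of interstitial mesenchymal and 867 CPM of tendon markers. Sedentary control replicate 4 had 171087 CPM of fast muscle and 6092 CPM of satellite cell markers. Des, at a mean of 3610 CPM, made up most of the satellite cell sums, while Pax7 had group means of 1.34 to 2.14 CPM. These sums therefore follow Des and are not read as numbers of satellite cells. Sedentary PBMT replicate 2 had 3012 CPM of satellite cell and 325 CPM of adipocyte markers. Fabp4, at a mean of 216 CPM, made up most of the adipocyte sums. The same mouse had the highest sum of endothelial markers among sedentary mice, 354 CPM. Keratinocyte markers summed to 5.76 CPM in sedentary control replicate 3, 29.1 CPM in sedentary PBMT replicate 4 and 4.59 CPM in fatigued control replicate 2.

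The PBMT effect on Nfil3 differed between the states by 1.11 on the log2 scale, by the test of the difference itself in edgeR (adjusted p = 0.00370), with adjusted p from 2.46e-06 to 0.0495 over the alternatives.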

How the results depend on the processing

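For the 7 genes the difference of the PBMT effects, the PBMT effect in each state and the difference between the states kept their sign in every alternative run, while their size moved. The fatigued effect ran from 0.014 to 0.12 for B4galt4, 0.04 to 0.12 for Hpcal1 and 0.11 to 0.28 for Map3k6, and the sedentary effect from -0.23 to -0.11 for Jpt1 and -0.35 to -0.17 for Pqlc1. Of 1029 alternative values of the 7 genes 17 turned sign, all 17 in the mean PBMT effect near 0. For that effect Jpt1 was 0.025 with voom, 0.011 with the length trend removed, 0.0060 with the GC trend removed and 0.023 and 0.030 without 2 and 3 of the libraries that stand apart (sedentary control 4 and fatigued PBMT 5, then also sedentary control 1), both choices made after seeing the data. Pqlc1 was 0.00443 with voom and 0.023 without those 2 libraries. With each mouse left out in turn it ran from -0.032 to 0.016 for Ephx2, -0.038 to 0.016 for Jpt1, -0.045 to 0.046 for Pqlc1 and -0.050 to 0.0037 for Rnf144b. The cause was not tested.

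The number of genes called for the difference was 1, with 665 at an unadjusted p under 0.05 and 1 to 3 with a mouse left out, 3 without sedentary PBMT replicate 2. For the mean PBMT effect 0 were called, 578 unadjusted, 3 with DESeq2, 4 with voom, 1 without the 2 or the 3 libraries and 0 to 2 with a mouse left out. For the sedentary effect 4 were called, 1082 unadjusted, 16 with no filter, 60 with DESeq2, 50 with voom, 12 and 16 with the length and GC trends removed, 1 with all 24 mice in 1 model, 18 without the 2 libraries, 6 without the 3 and 2 to 20 with a mouse left out, 2 without sedentary control 1 and 18 without sedentary control 4. For the fatigued effect 0 were called, 230 unadjusted, 2 with DESeq2, 0 with voom and 0 with a mouse left out. For the state 6017 were called, and 5546 to 7414 in the alternatives. The cause of these moves was not tested. No pair of the 7 genes passed with a prior count of 0.5 or without the 2 farthest mice.

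The lists were also counted without the 3 libraries that stand apart, singly and together, and without 2 of them, choices made after seeing the data. Of 100 medians of the difference 20 turned sign. Without fatigued PBMT 5 the median was -0.022 for the epoxide genes, -0.22 for the galactosyltransferases, -0.03 for slow fiber, -0.33 for adipocyte, -0.16 for tendon and -0.091 for erythrocyte markers. Without the 2 libraries it was -0.16 for the galactosyltransferases, -0.0026 for slow fiber, -0.35 for adipocyte, -0.17 for tendon and -0.23 for erythrocyte markers, and without the 3 it was -0.18, -0.090, -0.41, -0.14 and -0.14 in the same order. Without sedentary control 4 it was -0.0015 for adipocyte and -0.08 for erythrocyte markers, and without sedentary control 1 it was -0.03 for adipocyte and 0.041 for satellite cell markers. With each of the 3 left out in turn the median went up to 0.086 for the epoxide genes, 0.13 for the galactosyltransferases, 0.45 for slow fiber, 0.24 for tendon and 0.17 for erythrocyte markers, and down to -0.062 for satellite cells. The r over all mice of the members with their 3 most alike genes stayed within 1.5 times in all 84 values. Within a project r moved by more for Ephx2 and Hpcal1 with Ramp2 and for Jpt1 with Ptges3l. The cause was not tested.

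Deviations of same-numbered mice correlated across genes between -0.0715 and 0.0664 in the sedentary pairs and between -0.0846 and 0.325 in the fatigued pairs, of which 4 of 6 were above 0.1 and 3 of 6 were highest with their own number. As not every pair was above 0.1 and the labels name no shared source, the numbers were not taken to pair the mice. The paper reports that controls were present in each treadmill test, and the labels do not name the session of a mouse. The part of shared sessions in the fatigued pairs was not tested. With the replicate number as a block, 1 gene was called for the difference, 3 for the mean PBMT effect, 11 for the sedentary and 1 for the fatigued effect. The state could not be fitted with this block, because the blocks lie within a state. Counts of the 7 genes were 139 or more in every mouse, and counting error is largest for the lowest of them.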
